A study of Mus musculus with 22 samples.

Results

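The regions described here are the chromosome 11 rows, away from promoters, of 4 deposited tables of H3K4me3 differences in mouse synovial fibroblasts. They were chosen as listed regions on chromosome 11 that the authors' annotation places in a gene body or between genes, beyond the 3 kb around a transcription start site (TSS) that count as promoter. There were 3147 such regions of 26201 listed in all. They made up 2053 of 13603 regions listed at 3 weeks, 180 of 2923 at 8 weeks, 654 of 6593 at 11 weeks and 260 of 3082 under TNF. Chromosome 11 was picked because so many of its regions were lower at 3 weeks, so the 3 week values below are a description and carry no test.

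The libraries came from cultured synovial fibroblasts of mixed CBA x C57BL/6J background. The groups were Tg197 cells at 3, 8 and 11 weeks of age, wild-type (WT) cells at 8 weeks treated with TNF, and untreated WT cells at 3, 8 and 11 weeks, with 3 libraries in each of the 7 groups, and 1 input library of mixed genotype. Tg197 is a mouse line with a transgene for human TNF, in which arthritis develops. Neither the dose and duration of TNF nor the promoter of the transgene is stated in the labels. The 8 week and TNF comparisons share their WT libraries. The labels do not tie the 3 libraries to different animals or cultures, so p-values measure the spread between these libraries, which may be technical.

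H3K4me3 is the trimethyl mark on lysine 4 of histone H3. It marks the start sites of active and poised genes in sharp, high peaks, while gene bodies and intergenic DNA usually carry little of it. A peak far from an annotated start can mark a start site that the annotation lacks, such as that of a microRNA primary transcript, or a strong enhancer, and low values there sit close to the background of the immunoprecipitation. Synovial fibroblasts line the joint and respond to TNF through NF-kB with cytokines, chemokines and matrix-degrading enzymes.

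A genome of the files' mm9 build was not used here, so no sequence of the regions is shown. The sequences below are those of 2 microRNAs on chromosome 11, shown because Mir146 is 1 of the 24 genes between the annotated neighbours of an intergenic region that rose, and Mir21a lies within Tmem49, which held many regions; the tables tie no region to either. They are from RefSeq (GRCm38.p6), with the seed (bases 2 to 8, which pair with targets) in capitals, and 5′ is at the left. MiR-146a is induced by NF-kB and represses signalling proteins upstream of it, and miR-21a is abundant in fibroblasts and in fibrosis.
mmu-miR-146a-5p: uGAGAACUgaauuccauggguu
mmu-miR-21a-5p: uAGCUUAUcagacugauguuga

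Values are the authors' normalized read counts per region for libraries a, b and c of a group, in the order in which the deposited cells hold them. Per library the listed regions held 321448 to 2780941 reads, and the chromosome 11 regions away from promoters 12685 to 375292. Every replicate pair differed beyond counting noise over these regions, with a mean chi-square per region of 1.121 to 8.548. "Higher" and "lower" refer to regions past the adjusted p of 0.05 in the authors' deposited tables, and "rose" and "fell" to regions past a Benjamini-Hochberg adjusted p of 0.05 in limma. Only regions with a best window p of at most 0.0001 were listed, so limma's calls are not independent evidence that they differ.

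Chromosome 11 held a large share of the lower regions away from promoters at 11 weeks and with TNF, as it did in the 3 week table that it was chosen from. In the authors' deposited tables it held 2038 of 10262 such regions at 3 weeks (19.9%), 170 of 1580 at 8 weeks (10.8%, Clopper-Pearson 95% interval 9.27 to 12.4%), 474 of 3528 at 11 weeks (13.4%, 12.3 to 14.6%) and 254 of 1167 with TNF (21.8%, 19.4 to 24.2%). It holds 7.35% of the protein-coding genes of GRCm38.p6. It ranked first among chromosomes at 3 and 11 weeks and under TNF, and chromosome 2 came next there at 9.52%, 9.89% and 9.43%. At 8 weeks it came second, after chromosome 5 with 10.9%, and chromosomes 4 and 5 had more lower regions per 100 coding genes (10.9 and 13.6, against 10.6). The 3 week value is given with no interval, since it chose the chromosome. Counting error alone enters these intervals, and regions close to each other can share a signal. Many regions were listed on chromosome 11 at all. Away from promoters it held 2053 listed regions and the other chromosomes 8398 at 3 weeks. These counts were 180 and 1500 at 8 weeks, 654 and 4102 at 11 weeks, and 260 and 975 with TNF. Of those listed, 99.3% on chromosome 11 and 97.9% elsewhere were lower at 3 weeks, and 94.4% and 94% at 8 weeks. At 11 weeks 72.5% and 74.5% were lower, and with TNF 97.7% and 93.6%.

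Higher regions were as frequent on chromosome 11 at 11 weeks. In the authors' deposited tables it held 160 of 1129 higher regions away from promoters at 11 weeks (14.2%, 12.2 to 16.3%), the first rank. It held 4 of 125 at 3 weeks, 4 of 68 at 8 weeks and 3 of 43 with TNF, shares of 3.2%, 5.88% and 6.98%, and the interval at 8 weeks (1.63 to 14.4%) includes the share of genes. Among lower promoter regions its share also lay above that of genes. Chromosome 11 held 16.9%, 9.72%, 10.6% and 15.4% of lower promoter regions at 3, 8 and 11 weeks and with TNF, and 7.8%, 9.62%, 11.1% and 4.78% of the higher ones.

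**Figure D1:**
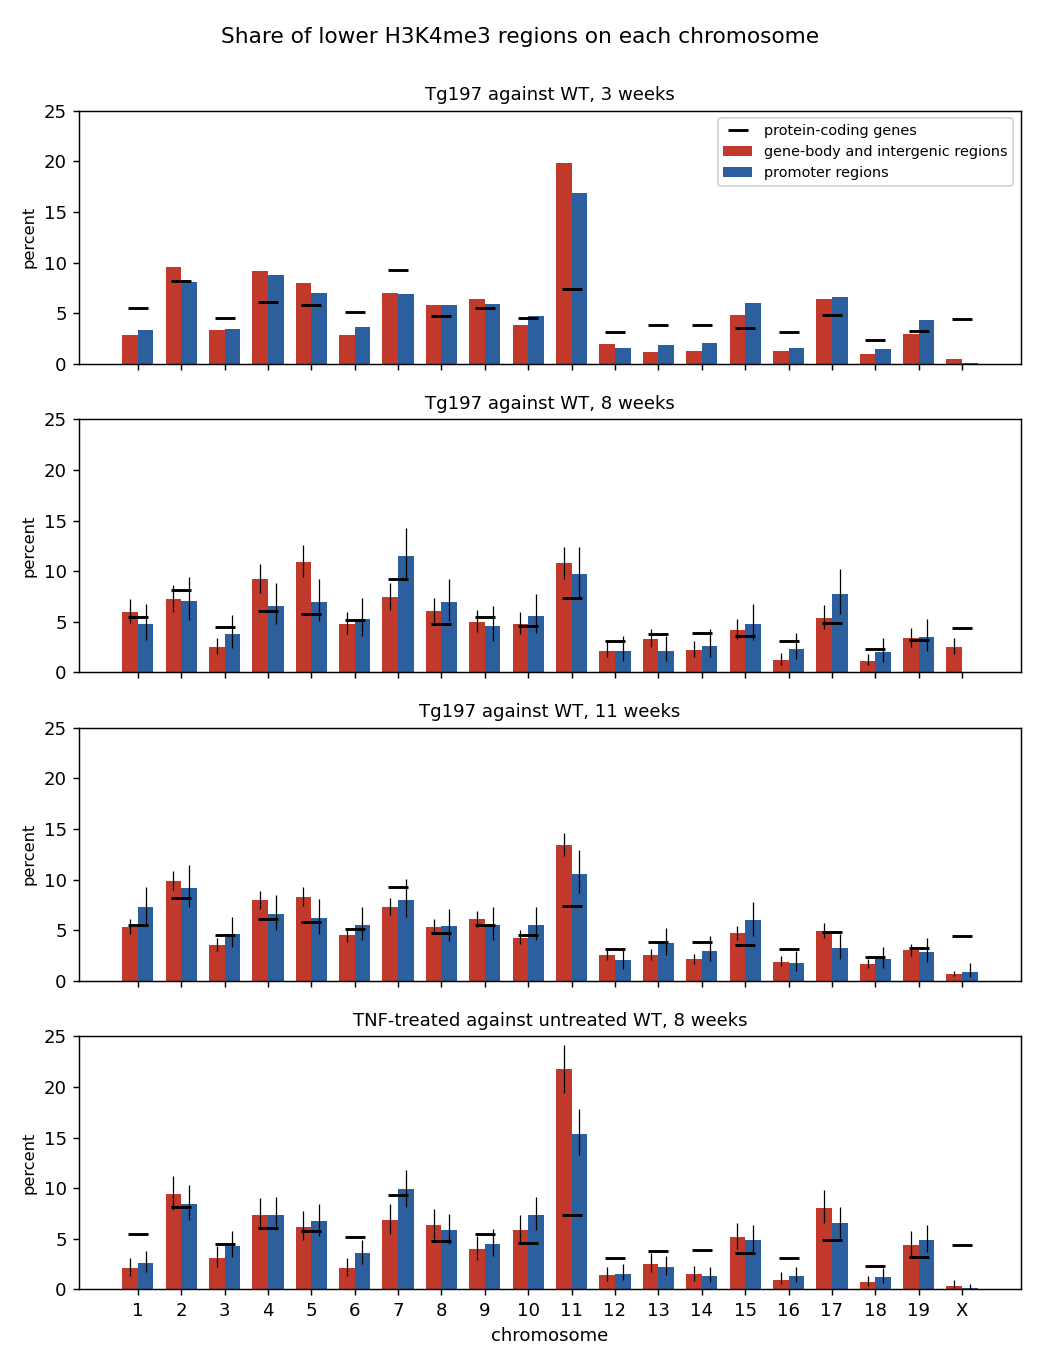
Share of the lower regions of each table on each chromosome, in percent, for regions away from promoters (red) and promoter regions (blue), with Clopper-Pearson 95% intervals except at 3 weeks, and the share of protein-coding genes (black dashes). Chromosome 11 stands at 19.9%, 10.8%, 13.4% and 21.8% for regions away from promoters, against 7.35% of genes.

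The size of the difference per region was close to that of other chromosomes. The median log2 change of its regions away from promoters came to -0.71 at 3 weeks, -1.003 at 8 weeks, -0.62 at 11 weeks and -1.19 under TNF. The medians over all listed regions were -0.70, -0.86, -0.60 and -0.58, and these include promoters. Among lower regions away from promoters the median was -0.71 on chromosome 11 and -0.75 on the other chromosomes at 3 weeks, -1.01 and -1.03 at 8 weeks, -0.66 and -0.67 at 11 weeks, and -1.20 and -1.22 with TNF.

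Library by library, chromosome 11 and the other chromosomes moved together. At 3 weeks the median deviation from the mean of the 6 libraries was -0.25, -0.65 and -0.14 (log2) in the Tg197 libraries, against 0.32, 0.33 and 0.43 in the WT libraries. At 8 weeks it was -0.95, -0.25 and -0.26 in the Tg197 libraries, against 0.87, 0.70 and -0.05 in the WT libraries. WT library c lay nearer to Tg197 libraries b and c than to the other two WT libraries.

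At 11 weeks the deviations were -0.25, -0.13 and -0.29 in the Tg197 libraries, against 0.31, 0.24 and 0.24 in the WT libraries, the most even of the 4 tables. With TNF they were -0.11, -1.13 and -0.51 in the treated libraries, against 0.96, 0.80 and 0.04 in the untreated ones. In the same libraries the other chromosomes differed from these values by no more than 0.09. In each table the deepest library, measured as the reads behind 1 normalized read, was also the lowest: Tg197 library b at 3 weeks (1.73), Tg197 library a at 8 weeks (1.87), Tg197 library c at 11 weeks (1.19) and TNF library b (2.75). WT libraries a and b, the highest at 8 weeks, had 0.684 and 0.636, and WT library c had 1.39. At 11 weeks the depths spanned the least, 0.934 to 1.19 in the Tg197 libraries, against 0.89 to 1.15 in the WT libraries. The part of depth in the results was not tested.

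**Figure D2:**
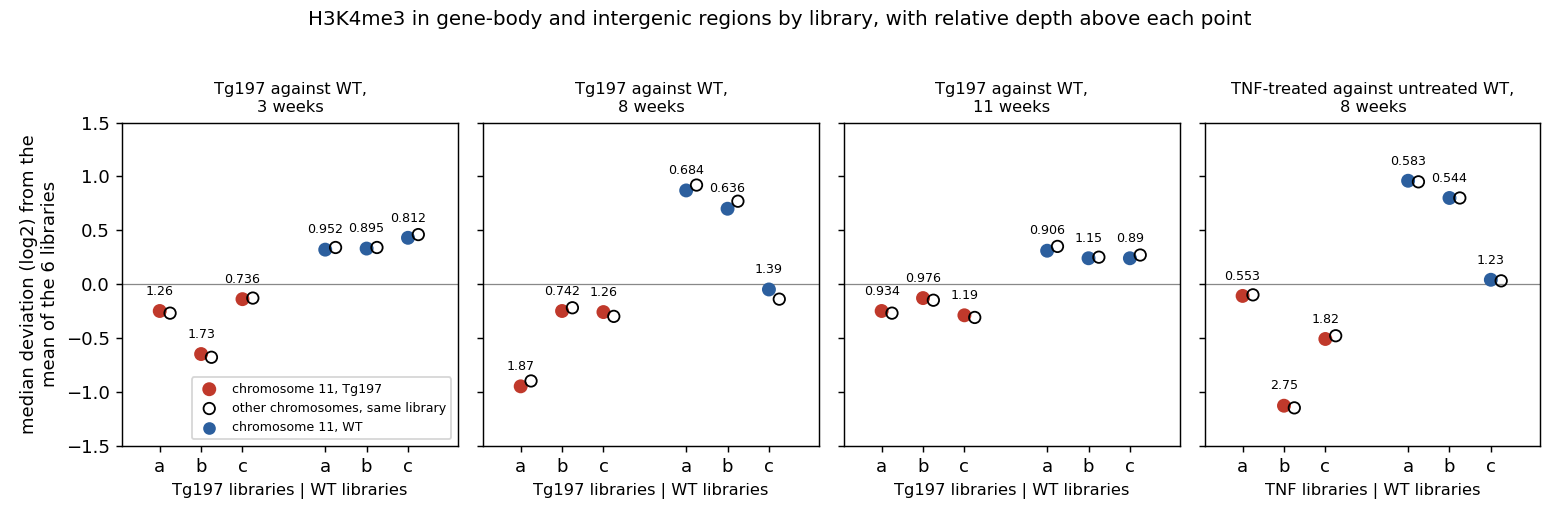
Median deviation (log2) of each library from the mean of the 6 libraries of its table, over regions away from promoters on chromosome 11 (filled, red for Tg197 or TNF, blue for WT) and on all other chromosomes (open), with the relative depth of the library printed above. The filled and open points of a library lie within 0.09 of each other, and the deepest libraries of the 3 week, 8 week and TNF tables, at 1.73, 1.87 and 2.75, are the lowest points.

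The share of reads on chromosome 11 differed little between groups at 3 and 11 weeks, and spread more between libraries at 8 weeks and with TNF. Of all reads in listed regions away from promoters, 15.4%, 15.6% and 15.5% lay on chromosome 11 in the Tg197 libraries at 11 weeks, against 15.1%, 15.2% and 15.1% in the WT libraries. All Tg197 values lay above all WT values, by 0.377 percentage points on average, and the exact two-sided permutation p of 0.1 is the smallest that 3 libraries against 3 allow. At 8 weeks the shares were 4.63%, 5.58% and 7.95% in the Tg197 libraries, against 7.23%, 6.83% and 8.02% in the WT libraries, and the groups overlapped (exact permutation p = 0.3). With TNF they were 17%, 17.7% and 16.7% in the treated libraries, against 19.1%, 17.7% and 16.9% in the untreated ones (exact permutation p = 0.4). At 3 weeks, given without a test, they were 22.8%, 22.4% and 23.6% in the Tg197 libraries, against 22.7%, 22.8% and 22.7% in the WT libraries.

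For lower regions the deposited enrichment over input gave a smaller difference than the normalized reads in 3 of the tables. For the few higher regions of these 3 it gave a larger one. Their median log2 enrichment ratio and read fold were 1.07 and 0.62 at 3 weeks (4 regions) in the authors' deposited tables. They were 1.06 and 0.56 at 8 weeks (4 regions) and 1.62 and 0.63 with TNF (3 regions). In the authors' deposited table of 3 weeks, the lower regions had a median enrichment of 2.29 in Tg197 and 2.7 in WT cells, a median log2 ratio of -0.22, where the deposited log2 fold of reads had a median of -0.69. At 8 weeks, in the authors' deposited table, the medians were 2.07 in Tg197 and 2.58 in WT cells, with a log2 ratio of -0.43 against a read fold of -1.03. In the authors' deposited table of TNF treatment, the medians were 2.52 in treated and 2.85 in untreated cells, with -0.22 against -1.21, and 51 of the 254 lower regions had the higher enrichment in the treated cells. At 11 weeks both measures were close in the authors' deposited table, at -0.58 and -0.65. The gap was shared by the whole of each table. Over lower regions away from promoters its median was 0.48 on chromosome 11 and 0.47 elsewhere at 3 weeks, 0.61 and 0.63 at 8 weeks, 0.07 and 0.07 at 11 weeks, and 0.99 and 0.99 under TNF.

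Most of these regions carried little of the mark. In the authors' deposited tables a WT enrichment of 5 or more was reached by 85 of 2053 chromosome 11 regions away from promoters at 3 weeks (4.14%), 7 of 180 at 8 weeks (3.89%), 43 of 654 at 11 weeks (6.57%) and 17 of 260 with TNF (6.54%). The regions were short, with a median length of 1100 bp in each table.

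**Figure D3:**
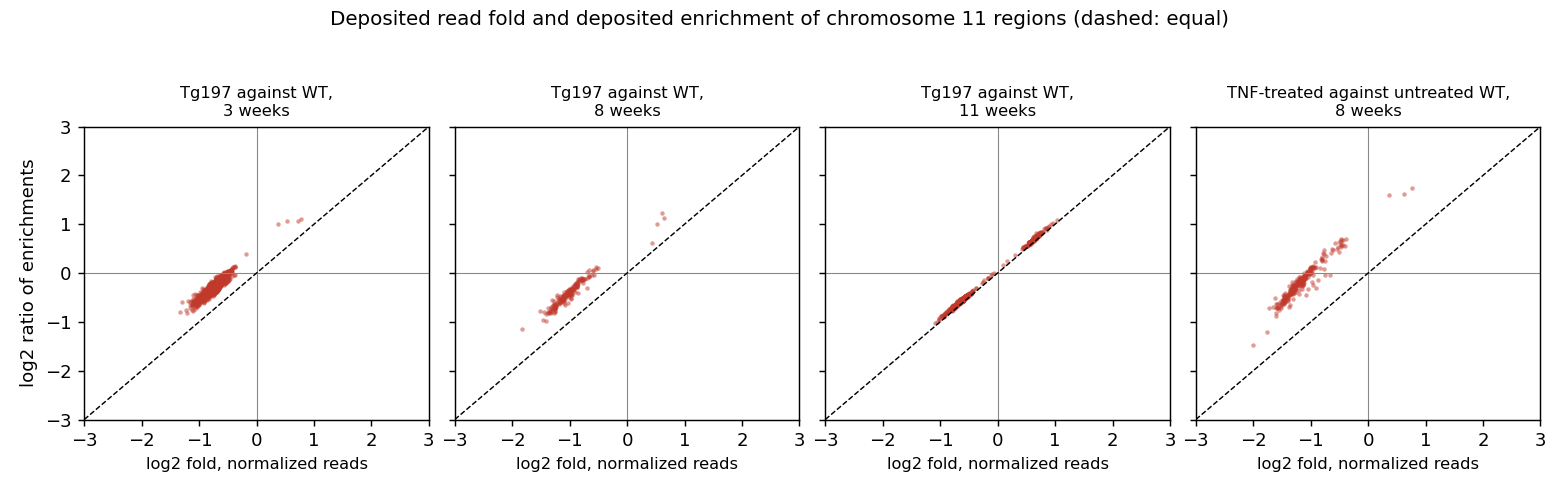
Log2 ratio of the deposited enrichments (y axis) against the deposited log2 fold of normalized reads (x axis), both treated over control, for each chromosome 11 region away from promoters, with the line of equal values dashed. The points lie above the line by a median of 0.48 at 3 weeks, 0.61 at 8 weeks and 0.99 with TNF, and by 0.07 at 11 weeks.

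The regions crowded toward the distal end of the chromosome. Beyond 60 Mb lay 86.8% of those of the 3 week table, 84.4% of 8 weeks, 78.3% of 11 weeks and 91.5% of the TNF table, against 76.8%, 69.9%, 73% and 85.9% of the listed chromosome 11 promoter regions. At 3 weeks the 1 Mb stretches with most regions began at 97 Mb (105 regions, around Lasp1, Mllt6, Plxdc1 and Kpnb1), 101 Mb (91, around Brca1, Becn1 and Sost) and 106 Mb (87, around Smurf2, Pecam1 and Ern1). The 97 Mb stretch also led at 11 weeks, with 19 lower and 4 higher regions. At 8 weeks the stretch from 98 Mb led with 14 regions, around Rara and Igfbp4. With TNF the stretches from 120 Mb (31 regions, around Bahcc1, P4hb and Nploc4), 69 Mb (28, around Kdm6b and Tnfsf12) and 94 Mb (20, around Col1a1, Itga3 and Dlx3) led.

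Regions of the 3 week table lay close together. The median gap to the nearest other region away from promoters was 5.1 kb on chromosome 11, and the medians of the other chromosomes ran from 5.55 to 76.2 kb. At 11 weeks the gap was 23.4 kb, and of 97 neighbouring pairs within 10 kb 66 had the same direction (68%). Gene-body regions lay a median of 18.9 kb from the TSS at 3 weeks, 14.4 kb at 8 weeks, 22.3 kb at 11 weeks and 12.7 kb with TNF.

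Regions on either side of the 3 kb boundary can have like values. At 3 weeks the gene-body region nearest to it, 3018 bp from the TSS of Zfp286, averaged 71.5 normalized reads in Tg197 and 122 in WT cells. The promoter region just short of it, 2992 bp from the TSS of Mpdu1, averaged 120 in Tg197 and 189 in WT cells. As classes they were also near each other at 3 weeks, with a median log2 change of -0.71 away from promoters and -0.58 in chromosome 11 promoter regions. The classes lay further apart at 8 weeks (-1.003 and -0.49), at 11 weeks (-0.62 and 0.13) and with TNF (-1.19 and -0.52).

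At 3 weeks, the early stage of disease in the series design, 2038 of the 2053 regions were lower and 4 were higher in Tg197 cells in the authors' deposited table. Of all listed regions 89.5% were lower and 9.71% higher. Away from promoters on other chromosomes 97.9% were lower and 1.44% higher, so chromosome 11 was close to its like class. As a description and not a test, 2027 fell and 1 rose by limma's threshold, where 88.9% and 4.68% of all listed regions did. The chromosome was chosen from these values. The groups did not overlap in 1990 of the 2053, where 92.6% of all listed regions had groups apart. The lower regions had a median of 90.1 normalized reads in Tg197 and 145 in WT cells. They lay in 495 genes and in intergenic DNA, and 71 genes held 5 or more. Smg6, which encodes an endonuclease of nonsense-mediated decay, held 23, all lower, with log2 changes from -0.93 to -0.53 spread between 6.33 and 230 kb from its TSS. Smurf2, a ubiquitin ligase of TGF-beta signalling, and Rptor, the raptor subunit of mTORC1, held 16 each. Tmem49, now named Vmp1, an autophagy protein, also held 16, from 11.7 to 93.6 kb into the gene, and Mir21a lies within the span of Vmp1 in GRCm38.p6.

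The widest 3 week differences were single regions with low counts. In Fam33a, a spindle-associated gene, the region at chr11:86929801-86930800 had 76.3, 52.2 and 10.9 normalized reads in Tg197 cells, against 109, 114 and 118 in WT cells (log2 change -1.67). Tg197 library c was far below the other two there. Intergenic chr11:85842201-85843300, between Tbx4 and Brip1, had 69.9, 38.9 and 42.1 in Tg197 cells, against 114, 111 and 155 in WT cells (-1.36). The Tg197 libraries lay below all WT libraries in both regions. The next widest were intergenic too, at chr11:100995601-100996700 between Fam134c and Tubg2 (-1.28), chr11:54624101-54625200 between Cdc42se2 and Lyrm7 (-1.27) and chr11:93843501-93845000 between Nme1 and Spag9 (-1.26).

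Intergenic chr11:67268501-67269600 was 1 of the 4 regions higher at 3 weeks. It had 200, 207 and 210 normalized reads in Tg197 cells, against 130, 124 and 175 in WT cells. The genes of the files on either side are 2310004I24Rik and Ntn1, and the interval holds 23 genes of GRCm38.p6, among them the skeletal muscle myosins Myh1, Myh2 and Myh4. The other higher region with groups apart lay in Gdpd1, with 91.4, 78.8 and 198 in Tg197 cells, against 72.5, 76 and 75.2 in WT cells. Sfi1, a centrosomal gene, held 14 lower regions. The one with the highest level, chosen after its values were seen, reached 7540, 4483 and 11733 normalized reads in Tg197 cells, against 11529, 11854 and 11484 in WT cells. The groups overlapped, and its enrichment was below 1, at 0.73 in Tg197 and 0.84 in WT cells in the authors' deposited table.

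At 8 weeks, the established stage, 170 of 180 regions were lower (94.4%) and 4 higher (2.22%) in Tg197 cells in the authors' deposited table. Of all listed regions 77.2% were lower and 20.2% higher there, and away from promoters on other chromosomes 94% and 4.27%. In limma no region of chromosome 11, and 0.00% of all listed regions, passed in either direction. With voom on the recovered reads 0 passed as well, and 151 of the 180 had an unadjusted limma p under 0.05. Without WT library c, 179 passed, of which 3 rose and 176 fell. The lower regions had a median of 71.8 normalized reads in Tg197 and 147 in WT cells. Groups did not overlap in 123 of the 180 (68.3%), where 63.2% of all listed regions had groups apart.

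The 4 regions higher at 8 weeks include a place with no annotated gene that returned in other comparisons. Intergenic chr11:43197801-43199300 had 170, 254 and 227 normalized reads in Tg197 cells, against 143, 134 and 137 in WT cells (log2 change 0.63 ± 0.22 SE, limma adjusted p = 0.0725). Every Tg197 library lay above every WT library. In Lif, which encodes leukemia inhibitory factor, a cytokine of the IL-6 family made by inflamed synovial fibroblasts, the region at chr11:4165801-4167100, 8.88 kb from the TSS, had 237, 262 and 299 in Tg197 cells, against 168, 179 and 209 in WT cells (0.52 ± 0.20, adjusted p = 0.0725 in limma). Groups did not overlap here either.

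Another of the 4, intergenic chr11:6372901-6374000 between H2afv and Myo1g, had 186, 152 and 215 normalized reads in Tg197 cells, against 113, 138 and 113 in WT cells. Its neighbours encode a histone variant and a myosin of blood cells. The widest lower difference at 8 weeks was intergenic chr11:86703301-86704900, between Dhx40 and Ypel2, with 48.6, 62 and 72.1 in Tg197 cells, against 327, 204 and 118 in WT cells (log2 change -1.72 ± 0.39, limma adjusted p = 0.0725). The groups did not overlap, though the WT libraries spread widely (SD 105). Regions in Osbp2 (-1.57), Spns2 (-1.55), Jup (-1.53), which encodes plakoglobin of cell junctions, and between Cbx8 and Tbc1d16 (-1.42) followed.

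The gene lists had few regions at 8 weeks, and none passed in limma. Of all 180 chromosome 11 regions away from promoters 94.4% were lower in the authors' deposited table, and of all listed regions 77.2%. Of 8 regions of matrix, bone and Wnt genes, all lower in the authors' deposited table, the widest lay in Col23a1, a transmembrane collagen, with 59.3, 58 and 79.2 normalized reads in Tg197 cells, against 200, 168 and 90.4 in WT cells. Of 3 of homeobox and patterning genes, those in Meox1 and Tbx2 were lower in the authors' deposited table. The one in Dlx3, which did not pass there, differed most in log2 terms, with 40.1, 119 and 99 in Tg197 cells, against 197, 181 and 143 in WT cells. Of 5 of cell cycle and growth genes, all lower in the authors' deposited table, the widest lay in Sept9, with 25.1, 70.1 and 57.8 in Tg197 cells, against 172, 135 and 76 in WT cells. Groups did not overlap in these 3 regions, and WT library c was the lowest of its group in each.

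At 11 weeks, the late stage, chromosome 11 regions away from promoters moved in both directions. Of the 654, 474 were lower (72.5%) and 160 higher (24.5%) in Tg197 cells in the authors' deposited table, where 67.0% of all listed regions were lower and 29.8% higher. In limma 486 fell (74.3%) and 160 rose (24.5%), against 67.7% and 29.6% of all listed regions. The split was near that of the whole table, and other chromosomes' regions away from promoters gave 75.4% falling and 23.9% rising. Groups did not overlap in 636 of the 654 (97.2%), where the share over all listed regions was 95.9%. The lower regions had a median of 83 normalized reads in Tg197 and 132 in WT cells, and the higher ones 133 in Tg197 and 85 in WT cells.

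The intergenic place at 43 Mb rose at 11 weeks. The region at chr11:43197901-43199700 had 260, 248 and 230 normalized reads in Tg197 cells, against 141, 131 and 134 in WT cells, or 246 ± 15.1 and 135 ± 5.4 (SD, n = 3 each), which is 1.82-fold (log2 change 0.86 ± 0.11, limma adjusted p = 0.00305). The groups were far apart, and the change stayed past the threshold under both other scalings (0.71 and 1.20). The genes of the files on either side are Ccng1, 2629 kb away, and Pwwp2a, 296 kb away. In GRCm38.p6 this interval holds 24 genes, among them Mir146, the gene of miR-146a shown above, and Pttg1, and the tables tie the region to none of them.

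The Lif region also rose at 11 weeks. At chr11:4165601-4167800 it had 459, 506 and 425 normalized reads in Tg197 cells, against 292, 374 and 303 in WT cells (464 ± 40.6 and 323 ± 44.3, SD, n = 3 each; log2 change 0.52 ± 0.11, limma adjusted p = 0.00434). Of the chemokine and cytokine list (21 genes) Lif alone held regions in any of the 4 tables, the 1 at 8 weeks and this one. In the same stretch of chromosome, the intergenic region at chr11:4125901-4126900, between Gatsl3 and Lif, fell, with 62.1, 73.8 and 79.5 in Tg197 cells, against 108, 112 and 112 in WT cells (-0.63 ± 0.17, adjusted p = 0.0049). Of the GRCm38.p6 genes in that interval, Osm encodes oncostatin M, a cytokine related to Lif.

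Several gene-body and intergenic regions with low counts rose about as much in log2 terms at 11 weeks. The largest was intergenic chr11:95656601-95657600, between Phb and Gngt2, with 126, 102 and 80.4 normalized reads in Tg197 cells, against 47.5, 44.5 and 59.5 in WT cells (2.04-fold, log2 change 1.01 ± 0.23, limma adjusted p = 0.00434). In Ntn1, which encodes the guidance protein netrin-1, a region 16.1 kb from the TSS had 122, 108 and 81.2 in Tg197 cells, against 59.6, 38.4 and 65.2 in WT cells (0.94 ± 0.24). In Spns3 a region 10.7 kb from the TSS had 157, 114 and 93.8 in Tg197 cells, against 68.4, 55.8 and 62.9 in WT cells (0.93 ± 0.21). All Tg197 values lay above all WT values in these 3 regions. Between Galnt10 and Larp1, at chr11:57732801-57733800, the change was 0.87 ± 0.23.

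The strongest falls at 11 weeks came to about the same size. In Prkca, which encodes protein kinase C alpha, the region at chr11:108131801-108133200 had 36.4, 93.2 and 73.7 normalized reads in Tg197 cells, against 153, 124 and 135 in WT cells (log2 change -1.11 ± 0.28, limma adjusted p = 0.00448). In Smg6 a region 165 kb from the TSS had 39.6, 65.6 and 51.1 in Tg197 cells, against 108, 96.8 and 112 in WT cells (-1.04 ± 0.22). Intergenic chr11:22528201-22529200 had 47.1, 53.3 and 51.9 in Tg197 cells, against 109, 111 and 104 in WT cells (-1.09 ± 0.18). The Tg197 libraries lay closest together in the last of these. Falls of this size also lay in Eif4enif1, a translation repressor (-1.09 ± 0.23), and Camk2b, a calmodulin-dependent kinase (-1.08 ± 0.33).

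Regions with a high enrichment were few at 11 weeks. In BC018473 the region with the highest WT enrichment, 5.22 kb from the TSS, had 94.2, 106 and 95.4 normalized reads in Tg197 cells, against 188, 150 and 119 in WT cells (log2 change -0.60 ± 0.17, limma adjusted p = 0.0054). Its enrichment was 13.75 in Tg197 and 20.06 in WT cells in the authors' deposited table. In Bahcc1, which encodes a chromatin protein, a region 4.09 kb from the TSS had 428, 543 and 601 normalized reads in Tg197 cells, against 384, 339 and 426 in WT cells (log2 change 0.44 ± 0.12, limma adjusted p = 0.0052). Its enrichment was 15.19 in Tg197 and 10.42 in WT cells in the authors' deposited table. In Tmem49 (Vmp1) the region 98.1 kb from the TSS, at the far end of the gene, had 460, 468 and 512 in Tg197 cells, against 520, 546 and 555 in WT cells (-0.17 ± 0.08, adjusted p = 0.0531 in limma). The groups were apart by a small margin, and the enrichment was 12.29 in Tg197 and 13.15 in WT cells in the authors' deposited table. These 3 regions were chosen after their values were seen, and the Tmem49 difference turned to 0.17 when libraries were scaled to their median over listed regions.

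**Figure D4:**
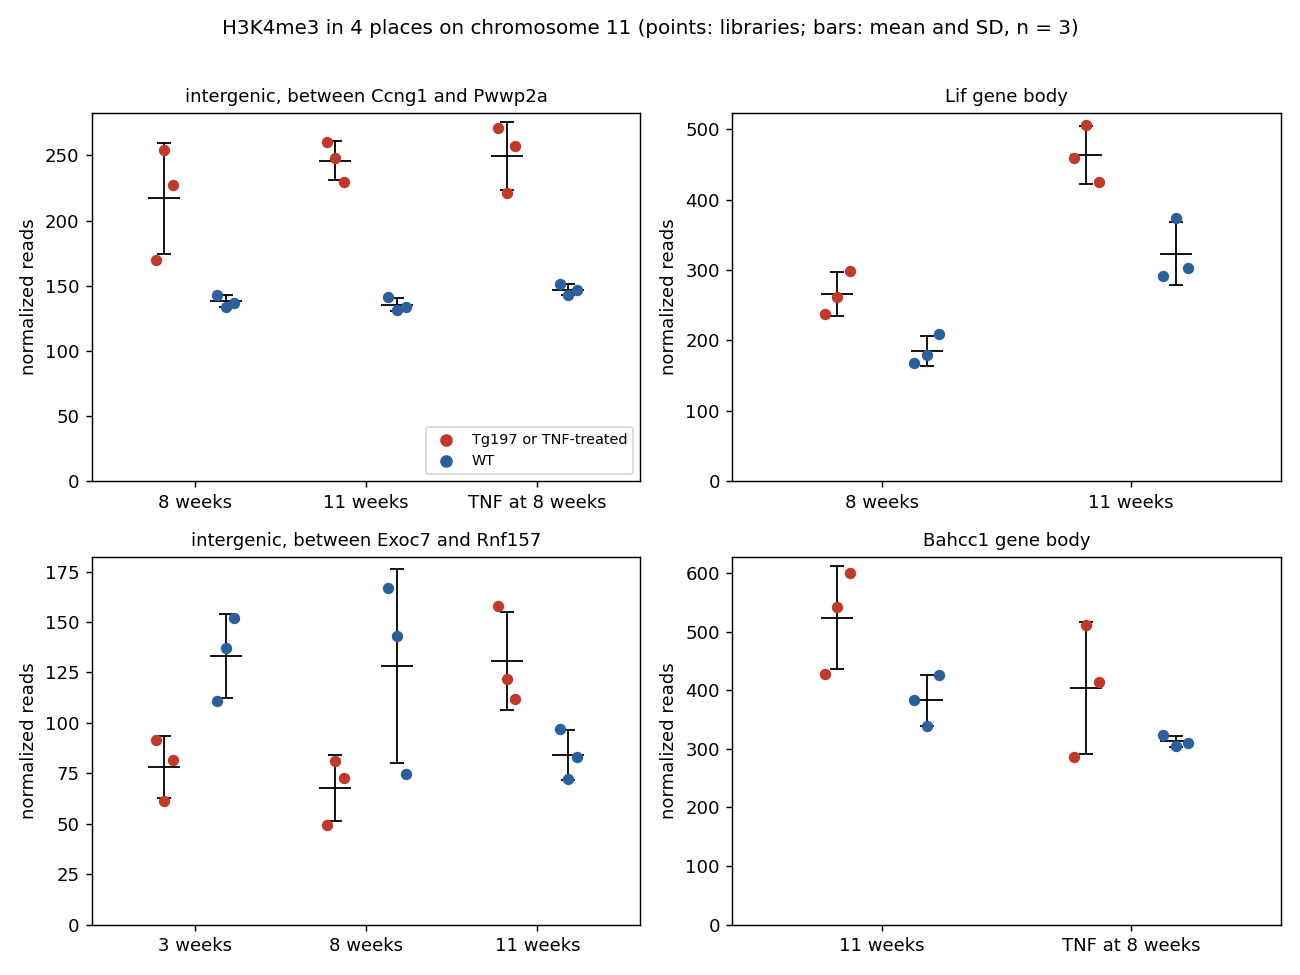
Normalized reads per library (points) with mean and SD (n = 3 per group) in 4 places on chromosome 11, Tg197 or TNF-treated libraries in red and WT libraries in blue, for each table that lists the place. The place between Ccng1 and Pwwp2a lies above WT in each of its 3 tables, and the place between Exoc7 and Rnf157 lies below WT at 3 weeks and above it at 11 weeks. The 3 week and 11 week regions between Exoc7 and Rnf157 share only their ends.

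With TNF, 254 of 260 regions were lower (97.7%) and 3 higher (1.15%) in the treated cells in the authors' deposited table, where 72.3% of all listed regions were lower and 24.6% higher. In limma 203 fell (78.1%) and 2 rose (0.769%), against 42.6% and 16.5% of all listed regions. Away from promoters on other chromosomes, 93.6% were lower in the authors' deposited table and 63.3% fell. No region passed when TNF library b or c or WT library a or b was left out, and 252 passed without WT library c. Groups did not overlap in 194 of the 260 (74.6%), where 74.2% of all listed regions had groups apart. The lower regions had a median of 77 normalized reads in treated and 177 in untreated cells.

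The 2 regions that rose with TNF were both intergenic. The place at 43 Mb, at chr11:43197401-43199000, had 271, 221 and 257 normalized reads in treated cells, against 151, 143 and 147 in untreated cells (250 ± 25.8 and 147 ± 3.79, SD, n = 3 each; log2 change 0.76 ± 0.16, limma adjusted p = 0.046). The treated libraries all lay above the untreated ones, which the 8 week comparison uses as well. The call was lost when TNF library b or c or WT library a or b was left out (adjusted p = 0.109 to 0.135). The place at 67 Mb, at chr11:67268401-67269400, had 181, 204 and 182 in treated cells, against 129, 90.1 and 148 in untreated cells (0.65 ± 0.24, adjusted p = 0.0473 in limma). This call was lost in voom (adjusted p = 0.0702) and under the scaling to start sites (adjusted p = 0.0593). The remaining higher region, in Bahcc1 4.74 kb from the TSS, had 286, 511 and 415 in treated cells, against 323, 305 and 310 in untreated cells, with overlapping groups.

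Among regions with groups apart and a mean of at least 30 normalized reads in 1 group, the widest falls with TNF lay in Rap1gap2, Snx11, Wipf2 and Smyd4 and between Gatsl3 and Lif. Over all 260 regions the lowest change was -2.33. In Rap1gap2, a Rap1 GTPase activator, a region 205 kb from the TSS had 99.5, 27.2 and 57.8 normalized reads in treated cells, against 257, 175 and 127 in untreated cells (log2 change -1.72 ± 0.53, limma adjusted p = 0.046). In Smyd4 the change was -1.66 ± 0.56 and in Snx11, a sorting nexin, -1.69 ± 0.64. In Wipf2, an actin regulator, a region 10.6 kb from the TSS had 66.9, 32 and 37.4 in treated cells, against 189, 180 and 78.7 in untreated cells (-1.68 ± 0.60). TNF library b and WT library c were the lowest of their groups in both. At intergenic chr11:4125401-4126400, between Gatsl3 and Lif, the values were 77.8, 30.9 and 44.6 in treated cells, against 228, 169 and 84.4 in untreated cells (-1.63 ± 0.58). Regions overlapping it fell at 11 weeks and were lower at 3 weeks (-0.61). Scaled to the median of the listed regions, the changes were -1.13 with TNF, -0.29 at 11 weeks and 0.05 at 3 weeks. The calls with TNF and at 11 weeks were lost there (limma adjusted p = 0.0584 and 0.135).

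The NF-kB and TNF signalling list (18 genes) had mostly rising regions at 11 weeks. At 3 weeks and with TNF its counts were near those of all chromosome 11 regions away from promoters. At 11 weeks 5 of the list's 7 regions rose and 2 fell. Of all chromosome 11 regions away from promoters 24.5% rose and 74.3% fell, and of all listed regions 29.6% and 67.7%. The median log2 change of the 7 was 0.58, where the median over all listed regions was -0.60. With libraries scaled to start sites 3 rose and 2 fell, and scaled to the median of the listed regions 5 rose and none fell. Irf1, a transcription factor induced by interferon and NF-kB, had 229, 238 and 216 normalized reads 9.19 kb from its TSS in Tg197 cells, against 142, 104 and 174 in WT cells (log2 change 0.73 ± 0.16, limma adjusted p = 0.00434). Tnip1, a partner of the NF-kB inhibitor A20, had 158, 156 and 113 18 kb from its TSS in Tg197 cells, against 102, 76.8 and 89.9 in WT cells (0.66 ± 0.17). Groups did not overlap in either.

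Tnfrsf13b, a receptor of B cells, rose as well at 11 weeks, with 158, 178 and 133 normalized reads in Tg197 cells, against 103, 80.2 and 96.6 in WT cells. The regions of Tnfaip1 and Stat5b rose with overlapping groups. Nlrp3, the inflammasome sensor, fell 4.21 kb from its TSS, with 47.1, 94.3 and 59.4 in Tg197 cells, against 113, 115 and 103 in WT cells (log2 change -0.78 ± 0.23, limma adjusted p = 0.007), and Stat5a fell too (-0.59 ± 0.19).

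The same list had no region at 8 weeks and 28 regions in 9 genes at 3 weeks, all lower, where 99.3% of the 2053 chromosome 11 regions were. Among them were 9 in Stat3 and 3 in Nos2, which encode a cytokine-activated transcription factor and the inducible nitric oxide synthase. Scaled to the median of the listed regions, 17 of these 28 turned positive (median 0.03), as did 789 of all 2053 regions. That scaling brings the median of all listed regions to -0.04, so such turns are built into it. With TNF 5 of the list's 7 regions fell and none rose, where 78.1% of all 260 chromosome 11 regions away from promoters fell. Map3k14, which encodes NIK, the kinase of the alternative NF-kB pathway, had 92.2, 28.3 and 46.8 normalized reads 26.5 kb from its TSS in treated cells, against 213, 169 and 98.2 in untreated cells (log2 change -1.61 ± 0.57, limma adjusted p = 0.0463). Socs3, a feedback inhibitor of cytokine receptors, had 271, 226 and 254 in treated cells, against 446, 412 and 296 in untreated cells (-0.60 ± 0.17). Its enrichment ran the other way in the authors' deposited table, at 4.37 in treated and 3.13 in untreated cells.

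The list of matrix, bone and Wnt genes (25 genes) had counts near those of all chromosome 11 regions away from promoters. At 11 weeks 6 of 7 regions fell and 1 rose, where 74.3% of those regions fell, and with TNF 6 of 6 fell, where 78.1% did. At 3 weeks all 22 were lower in the authors' deposited table, where 99.3% of those regions were, though 11 of them turned positive when scaled to the median of the listed regions. With TNF the gene body of Col1a1, which encodes the alpha 1 chain of type I collagen, had 143, 70.5 and 116 normalized reads 8.32 kb from the TSS in treated cells, against 367, 197 and 153 in untreated cells (log2 change -1.08 ± 0.37, limma adjusted p = 0.0461). Itga3, an integrin subunit that binds laminin, had 132, 51.6 and 80.3 in treated cells, against 256, 226 and 146 in untreated cells (-1.31 ± 0.38). The treated libraries lay below the untreated ones in both.

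At 11 weeks a region in Rnf43, a ubiquitin ligase that removes Wnt receptors, had 66.4, 51.2 and 62 normalized reads in Tg197 cells, against 117, 142 and 106 in WT cells (log2 change -1.01 ± 0.19, limma adjusted p = 0.00434). Timp2, an inhibitor of matrix metalloproteinases, fell in 2 regions (-0.72 ± 0.20 and -0.59 ± 0.14). Adamts2, the procollagen N-proteinase, was the gene that rose, with 121, 111 and 87.9 in Tg197 cells, against 61.8, 70.6 and 61.8 in WT cells (0.70 ± 0.19).

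The homeobox and patterning list (19 genes) and the cell cycle and growth list (16 genes) also stayed near the 99.3% lower at 3 weeks, 74.3% falling at 11 weeks and 78.1% falling with TNF of all these regions. Of the homeobox and patterning list all 9 regions were lower at 3 weeks in the authors' deposited table (1 turned positive when scaled to the median of the listed regions). At 11 weeks 5 of 5 fell, the widest in Tbx2, a T-box repressor (-1.02 ± 0.26), and 4 in Ebf1, a transcription factor of B cells and mesenchymal progenitors, between 5.82 and 293 kb from its TSS. With TNF 3 of 3 fell, led by Dlx3, a homeobox factor of bone and skin (90.4, 28.3 and 59.4 normalized reads in treated cells, against 190, 188 and 113 in untreated cells). Of the cell cycle list 62 of 63 were lower at 3 weeks in the authors' deposited table (28 of the 63 turned positive under that scaling). At 11 weeks 16 of 19 regions fell and 2 rose, including 6 in Ncor1, a nuclear receptor corepressor, and 4 in Nf1, the neurofibromin gene, all falling. With TNF 8 of 9 fell, 4 of them in Rara, the retinoic acid receptor alpha, with changes from -1.22 to -0.63.

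Trp53, which encodes p53, was lower at both earlier ages and rose at 11 weeks in the authors' scaling. Near 10 kb from its TSS it had 98.6, 88.7 and 86.9 normalized reads in Tg197 cells at 3 weeks (chr11:69402701-69403700), against 120, 143 and 145 in WT cells. At 8 weeks it had 57.7, 80.9 and 71.3 in Tg197 cells, against 164, 145 and 81.8 in WT cells. At 11 weeks the region overlapping that of 3 weeks (chr11:69403101-69404100) had 126, 139 and 127 in Tg197 cells, against 87.2, 80.2 and 87.6 in WT cells (log2 change 0.62 ± 0.15, limma adjusted p = 0.00438). The groups were apart at each age. Scaled to the median of the listed regions, the change was 0.10 at 3 weeks, -0.13 at 8 weeks and 0.96 at 11 weeks, so the 3 week direction turns with the scaling. The difference between ages was not tested.

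Markers of other cell types gave few regions, mostly lower, as most chromosome 11 regions away from promoters were. Of all those regions 99.3% were lower at 3 weeks and 94.4% at 8 weeks, and 74.3% fell at 11 weeks and 78.1% with TNF. Among 13 leukocyte genes 5 regions in Ccr7, Ikzf3 and Tbx21 were lower at 3 weeks, 2 in Ccr7 at 8 weeks and 2 in Ikzf3 and Itgae at 11 weeks, and none was listed with TNF. Of 3 endothelial genes Pecam1 held 7 lower regions at 3 weeks, and Pecam1 and Ace held 1 rising and 2 falling regions at 11 weeks, and 1 in Pecam1 fell with TNF. Of 5 nerve and glia genes Pmp22 held 2 lower regions at 8 weeks and 2 at 11 weeks, and of 3 blood cell genes Slc4a1 held 1 lower region at 3 weeks. No region of 6 muscle or 6 epithelial genes was listed in any table. Since only differing regions were listed, the fibroblast identity of the cells could not be checked from their marker levels.

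Few places were listed more than once. Of the 180 regions of 8 weeks, 31 overlapped a region of 3 weeks by at least 1 base (17.2%, and 1.51% of the 2053 of 3 weeks), all in the same direction. Of the 654 of 11 weeks, 100 overlapped one of 3 weeks (15.3%; 104 of the 2053, or 5.07%, the other way round), 77 in the same direction and 23 in the opposite one. Of the 260 of the TNF table, 57 overlapped a region of 3 weeks (21.9%; 58, or 2.83%, the other way round), all in the same direction. Since nearly all regions of the 3 week, 8 week and TNF tables were lower, agreement in direction follows from that.

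By an overlap of at least 1 base, a single place was listed at all 3 ages, the intergenic stretch between Exoc7 and Rnf157. Foxj1, a factor of ciliated cells, is among the GRCm38.p6 genes there. At 3 weeks, at chr11:116186101-116187100, it had 91.4, 61.5 and 81.5 normalized reads in Tg197 cells, against 111, 137 and 152 in WT cells. At 8 weeks, at chr11:116186401-116187400, it had 49.2, 80.9 and 72.9 in Tg197 cells, against 167, 143 and 74.6 in WT cells, and the groups overlapped. At 11 weeks, at chr11:116187001-116188000, it had 158, 122 and 112 in Tg197 cells, against 97.1, 72.4 and 83.1 in WT cells (log2 change 0.63 ± 0.18, limma adjusted p = 0.00564). The stretch was lower at both earlier ages and rose at 11 weeks, with the same signs under both other scalings. Its 3 week and 11 week regions share only their ends, and the 11 week region lies mostly beyond both earlier ones. Whether the same bases changed direction was not tested.

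Gene bodies returned more often than exact places. Of 622 genes with a region in any table, 32 had one at all 3 ages and 13 of these also with TNF, among them Rptor, the septin gene Sept9, the integrin Itgb4, the non-muscle myosin Myh10 and the thioredoxin-related Nxn. Of the 32, 17 held only lower regions at all 3 ages, 4 (BC017647, D030028A08Rik, Supt6h and Trp53) held lower ones at 3 and 8 weeks and higher ones at 11 weeks, and 9 held both kinds at 11 weeks. In all, 29 genes held regions of both directions at 11 weeks. Rptor is 1 of them, with 3 lower and 3 higher regions between 92.2 and 204 kb from its TSS.

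The promoters of the same genes were mostly not listed. At 3 weeks the listed ones split much like all listed chromosome 11 promoter regions, and with TNF more of them were lower. Of the 275 genes with a gene-body region at 11 weeks, 52 also had a listed promoter region (18.9%). Of the 30 of these with lower gene-body regions only, 13 had a lower and 13 a higher promoter in the authors' deposited table, and of the 11 with higher gene-body regions only, 4 had a higher and 7 a lower one. Of all listed chromosome 11 promoter regions 45.4% were lower and 46.9% higher. With TNF 31 of 32 had lower promoter regions, with Fxr2 as the exception, where 80.9% of these promoter regions were lower. At 3 weeks 120 of 160 had a lower and 33 a higher promoter, where 75.8% and 23.7% of these promoter regions were lower and higher. Tnip1 is 1 of these 33: its promoter region had 522, 518 and 634 normalized reads in Tg197 cells at 3 weeks, against 321, 324 and 398 in WT cells, while the region 29 kb from the TSS had 106, 65.5 and 99.1 in Tg197 cells, against 134, 126 and 153 in WT cells. At 11 weeks both its promoter (674, 498 and 583 in Tg197 cells, against 349, 270 and 267 in WT cells) and its gene-body region rose.

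How far the lower direction held under other scalings of the libraries differed between the comparisons. When libraries were brought to a common median over the listed regions, the median change of all regions shifted by 0.67 at 3 weeks, 0.71 at 8 weeks, 0.34 at 11 weeks and 0.51 under TNF. When the common median was taken over start sites only (regions up to 1 kb from a TSS), it shifted by -0.33, -0.12, -0.15 and -0.11. Under the first, 789 of the 2053 regions of 3 weeks were positive. Of regions lower in the authors' deposited tables it turned 775 of 2038 positive at 3 weeks and 12 of 170 at 8 weeks. It did so for 9 of 474 at 11 weeks and 11 of 254 with TNF. With it at 11 weeks 164 chromosome 11 regions rose and 57 fell. Since most listed regions were lower, this scaling moves the median of all regions toward 0 by construction, to -0.04, -0.15, -0.26 and -0.07. A change of sign under it therefore cannot decide the direction of a region. The 160 regions higher at 11 weeks were all positive under the first scaling, and all but 1 under the second.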

How the data were processed

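H3K4me3 ChIP-seq was analysed from 4 tables of regions on mm9. Per the submitters' processing notes, mm9, BWA, TopHat, Cufflinks, TopHat2 and Cuffdiff were used, with no version or role; how regions were called is not stated there. The authors gave, per the file headers, 3 normalized counts per group in 1 cell, group means (signal), an enrichment ratio over input, a log2 fold change, and the p-value and adjusted p-value of each region. Each value was a whole number of library steps within 0.02 normalized reads (100% of values), which gave reads and depth. Control was read as WT, since both 8 week tables held equal control reads in 162 of 162 values.

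limma 3.58.1 (R 4.3.3) was run on log2(normalized count + 0.5), with a variance trend, over every region of a table, with Benjamini-Hochberg adjustment; it was tested on simulated data. Alternatives were voom, pseudocount 5, a mean of at least 20, 2 scalings, stricter thresholds and each library left out. Shares have exact Clopper-Pearson intervals.

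Members and gene lists were chosen with earlier results of these data known. Regions were named by rule: per table and direction the 5 widest past the deposited threshold with a mean of at least 30 in the higher group and groups apart, those listed at all 3 ages, the widest of each gene list, and the 3 fullest 1 Mb stretches. Other list regions and promoters named were chosen after their values were seen. Symbols matched GRCm38.p6 for 618 of 622 genes.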

Additional observations from a re-analysis of the deposited data

Results flagged for a closer look

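On chromosome 11, 21 pairs of regions away from promoters stood out, each overlapping by at least 1 base. In these, every Tg197 library lay below all WT libraries of its age at 3 weeks and above them at 11 weeks. Scaled to the median of the listed regions, 15 of the 21 kept these signs, and all did when scaled to start sites. They are given because the same contrast ran in opposite directions at both ages, and the difference between ages was not tested. The base share is alike: 23 of the 100 regions of 11 weeks that overlap one of 3 weeks ran the other way, where 24.5% of all 654 were higher at 11 weeks and 99.3% of the 2053 were lower at 3 weeks. With 0.5 of both regions required to overlap, 12 pairs were left. Other pairs share only their ends, such as chr11:78030101-78031100 and chr11:78031001-78032300 in Supt6h. The 21 pairs lie in the genes Mprip, Trp53, Smg6, Supt6h, 1700113I22Rik, Cdr2l, Ube2o, Dnahc17, Ccdc40, Rptor, Slc38a10 and Nploc4 and in 8 intergenic places. In Nploc4, a cofactor of the p97 ATPase, the log2 change was -0.71 at 3 weeks and 0.77 ± 0.17 SE at 11 weeks (limma adjusted p = 0.00434), and in Ccdc40, a gene of motile cilia, -0.75 and 0.76 ± 0.17. In 1 intergenic pair, chr11:77488001-77489800 and chr11:77487301-77488300, which overlap by less than 0.5 of each, the log2 change was -0.90 and 0.84 ± 0.18.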

How the results depend on the processing

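No paired analysis was possible because the values of a group carry no replicate number. The edgeR test listed as an alternative was not run, because the deposited values are normalized reads joined in cells and not counts; voom was run on the recovered reads. At 3 weeks 2028 chromosome 11 regions away from promoters passed in limma, against 3 with libraries scaled to the median of the listed regions, 0 at a threshold of 0.01, and 0 to 2047 with 1 library left out (0 without WT library c). At 8 weeks 0 passed, against 7 with that scaling, 155 with scaling to start sites, and 0 to 179 with 1 library left out (179 without WT library c). At 11 weeks 646 passed, against 221 with the median scaling and 616 to 640 with 1 library left out. With TNF 205 passed, against 66 with the median scaling, 0 at a threshold of 0.01, and 0 to 252 with 1 library left out. Voom, a pseudocount of 5 and a mean of at least 20 normalized reads kept these counts within 1.5 times. The cause of these differences was not tested.

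Counting only gene-body regions at least 10 kb from a TSS, an alternative chosen after seeing the data, the share of lower regions on chromosome 11 was 21.3% at 3 weeks, 12.6% at 8 weeks and 14.8% at 11 weeks, and the share of higher ones 0% at 8 weeks and 0% with TNF. At a deposited adjusted p under 0.001 the TNF share of lower regions was 17%. The difference in read share at 11 weeks was 0.738 percentage points over lower regions only and 0.27 over regions with a mean of at most 1000 normalized reads (chosen after seeing the data), and 0.344 to 0.414 with 1 library left out. With that limit of 1000 the mean share at 8 weeks was 9.33% in Tg197 and 9.43% in WT libraries (exact permutation p = 0.9). With TNF it was 19% in treated and 20.2% in untreated libraries, a difference of -1.121 points with groups apart (exact permutation p = 0.1). Requiring 0.5 of both regions to overlap, 6.11% of the 8 week, 7.95% of the 11 week and 11.9% of the TNF regions overlapped one of 3 weeks. Over the 40 regions named by rule no direction reversed under these settings; outside the rule some did under the median scaling, among them Tmem49 at 11 weeks (0.17), and Sfi1 (0.01), Trp53 (0.10) and Tnip1 (0.03) at 3 weeks. A library of the 8 week table had as few as 12685 reads in these regions, which limits what it can show.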
